A study of Homo sapiens with 18 samples.

Results

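The growth factor receptor kinases described here are EGFR, ERBB2, ERBB3, ERBB4, FGFR1, FGFR2, FGFR3, FGFR4, MET and IGF1R. They were taken by gene symbol, 10 of the 39496 genes in the deposited tables, as receptor tyrosine kinases with a known role in bladder cancer, by a rule that used no measured value. The RNA came from 2 established cell lines of human bladder cancer, UM-UC-3 and T24. Cells received siNC, a negative control siRNA, or siACAT1-1 or siACAT1-2, which target ACAT1, a mitochondrial acetyl-CoA acetyltransferase. Each of the 6 groups held 3 libraries from separate experiments by the study's design, which gave 18 libraries, and each cell line stands for itself alone. The labels give siNC cells as WT and the other arms as ACAT1 knockdown, and every group, siNC included, had received an siRNA.

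A receptor tyrosine kinase spans the cell membrane, binds a growth factor outside and, once paired with a neighbouring receptor, phosphorylates tyrosines on its own tail. Adaptor proteins dock there and pass the signal to RAS and to PI3K and AKT. In the urothelium, the lining of the bladder, EGFR and the ERBB receptors respond to EGF-like ligands and neuregulins, FGFR3 is frequently mutated in papillary tumours, ERBB2 is amplified in some invasive tumours, and MET and IGF1R are the receptors for hepatocyte growth factor and the insulin-like growth factors.

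Levels are given as the deposited RPKM, counts scaled to exon length and to the total of the library, which allows 1 gene to be set beside another. Differences are log2 fold changes with their standard error (SE) from counts in edgeR, and a gene was called at a Benjamini-Hochberg adjusted p under 0.05 over the 20144 genes tested. Of the receptors, 9 of 10 passed the filter on low counts. ERBB4 did not, with 0 to 6 counts per library. Libraries held 25163490 to 34417230 counts. ACAT1 was at 44.1 to 47.4 RPKM in UM-UC-3 siNC libraries and at 1.83 to 3.59 with either siRNA, and at 14.6 to 17.1 and 0.671 to 1.46 in T24, so every library was on the side its label gives. Markers of differentiated urothelium were scarce: 0 of 13 reached a mean of 1 RPKM in UM-UC-3 (summed level 0.916 to 1.62 RPKM) and 2 of 13 in T24 (PPARG and FOXA1, summed level 5.43 to 8.12 RPKM), with UPK3A at 0 in all UM-UC-3 libraries and UPK1B at 0 in all T24 libraries. Of 8 general epithelial markers 3 and 5 reached that level in UM-UC-3 and T24, of 5 mesenchymal markers 4 and 5, and of 6 blood and endothelial markers 0 and 0. In T24 the 3 libraries numbered 2 stood apart, with 296 to 424 RPKM of summed epithelial markers against 738 to 1094 in the other 6, and values without them are given beside several of the receptor results.

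MET, EGFR, ERBB2 and FGFR1 made up nearly all of the RNA of these 10 receptors in both cell lines. In UM-UC-3 siNC libraries MET led at 10.9 RPKM ± 0.439 (SD, n = 3), followed by EGFR at 4.35 ± 0.688, FGFR1 at 4.302 ± 0.0519 and ERBB2 at 2.98 ± 0.222 (each SD, n = 3). EGFR and FGFR1 overlapped there and cannot be ordered. In T24 the order was EGFR at 20.6 RPKM ± 4.40, MET at 14.1 ± 2.63, ERBB2 at 5.32 ± 0.384 and FGFR1 at 1.88 ± 0.407 (each SD, n = 3), with no overlap between neighbours. The other receptors were under 1 RPKM in every library. Among them IGF1R, FGFR3, FGFR4 and ERBB3 overlapped in UM-UC-3, and IGF1R, ERBB3 and FGFR4 in T24. Over the 9 libraries of a line the sum of all 10 receptors ran from 22.5 to 29.2 RPKM in UM-UC-3 and from 32.2 to 54.7 in T24. Other receptor tyrosine kinases lie outside this sum, such as AXL at 36.8 RPKM in UM-UC-3 siNC libraries and 33.3 in those of T24.

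**Figure D1:**
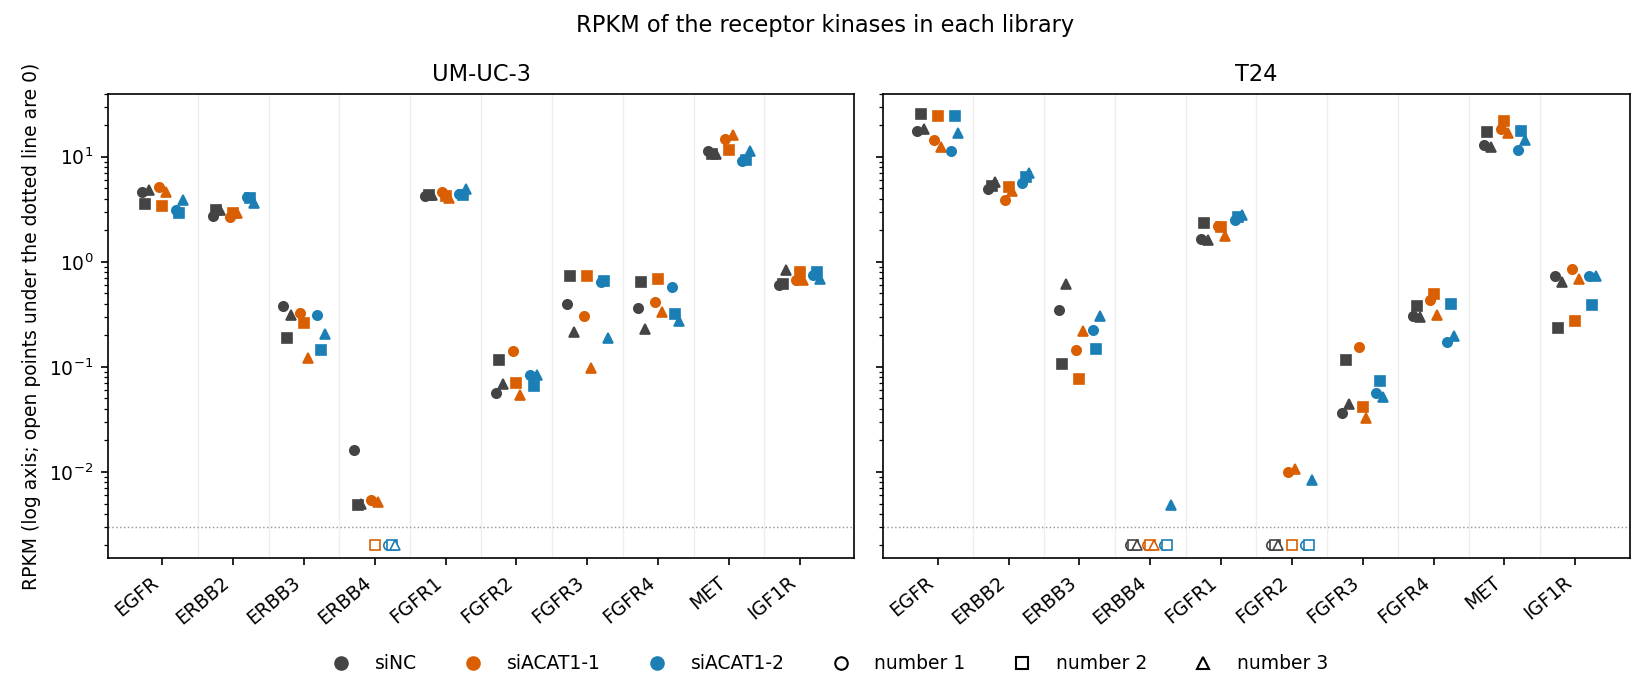
RPKM of each receptor in each library on a log axis, with UM-UC-3 on the left and T24 on the right. Colours are the siRNA arms, shapes are the replicate numbers of the labels, and open points under the dotted line are libraries at 0. MET, EGFR, ERBB2 and FGFR1 sit above 1 RPKM in all 18 libraries, and FGFR2 is at or near 0 in T24.

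The shares within each family show the same picture from another side. EGFR took a median of 76.9% of the summed ERBB family RPKM in T24 (range 65.8 to 82.6%, n = 9 libraries) and 52.0% in UM-UC-3 (41.0 to 62.8%), where ERBB2 took 44.1% (33.1 to 56.9%). The ERBB family shares of EGFR did not overlap between the lines. FGFR1 took most of the FGFR family in both, with a median of 84.0% in UM-UC-3 (74.1 to 90.0%) and 82.9% in T24 (78.9 to 91.7%). Over all 10 receptors MET held the largest median share in UM-UC-3, at 44.7% (39.1 to 55.5%), and EGFR in T24, at 44.98% (33.6 to 50.02%).

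UM-UC-3 and T24 were then compared in their siNC libraries, to see which receptors set the lines apart without ACAT1 knockdown. Of the 9 receptors tested, 5 were called: FGFR1, FGFR2 and FGFR3 were higher in UM-UC-3, and EGFR and ERBB2 were higher in T24. That is to be read against 44.3% of all genes called in this comparison, 22% higher and 22.3% lower in UM-UC-3, so a call between these lines is common. FGFR2 is counted among the 5, but it passed the filter on low counts through UM-UC-3 alone. Its call could only be higher there. The median log2 fold change was 0.36 over the 9 receptors and 0.03 over all genes tested. In RNA from a whole culture, fewer cells of a type and less RNA per cell cannot be told apart.

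EGFR, the receptor for EGF, TGF alpha and amphiregulin, lies at chr7:55019021-55211628 (GRCh38, plus strand). Its RPKM was 4.64, 3.56 and 4.84 in the UM-UC-3 siNC libraries and 17.6, 25.7 and 18.6 in those of T24. All 9 T24 libraries were above all 9 UM-UC-3 libraries, and the T24 mean was 4.74 times that of UM-UC-3 in siNC. The log2 fold change, UM-UC-3 minus T24, was -2.20 (SE 0.26, adjusted p = 4.74e-06), and it was -2.08 without the 3 T24 libraries numbered 2. EGFR-AS1, which overlaps 1.49% of the exon bases of EGFR on the other strand, was also lower in UM-UC-3 (-1.81, SE 0.42, adjusted p = 0.00220), at a mean of 0.718 RPKM against 11.2 for EGFR over all libraries. The strand setting of the counting is not given in the sources used here, and the part of the overlap in these values was not tested.

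ERBB2, which has no ligand of its own and pairs with the other ERBB receptors, lies at chr17:39687914-39730426 (GRCh38, plus strand). It was at 2.73, 3.10 and 3.12 RPKM in UM-UC-3 siNC libraries and at 4.94, 5.31 and 5.71 in those of T24. The groups did not overlap, and the log2 fold change was -0.79 (SE 0.14, adjusted p = 2.05e-04). ERBB3 (chr12:56079857-56103505, plus strand), a neuregulin receptor with a weak kinase of its own, was at 0.376, 0.187 and 0.314 RPKM in UM-UC-3 and at 0.349, 0.107 and 0.618 in T24. Those groups overlapped, and its log2 fold change of -0.26 (SE 0.54, adjusted p = 0.729) did not pass the test. ERBB4 (chr2:211375717-212538841, minus strand), the other neuregulin receptor, had 2 to 6 counts in the UM-UC-3 siNC libraries and 0 in those of T24, and no fold is given since both lie near the limit of 3 counts per library.

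FGFR1, which sits on chromosome 8 between 38411138 and 38468834 on the minus strand, had the most RNA among the receptors for fibroblast growth factors. It was at 4.27, 4.36 and 4.28 RPKM in UM-UC-3 siNC libraries and at 1.67, 2.35 and 1.62 in those of T24. The lines did not overlap over all 18 libraries, and the log2 fold change was 1.25 (SE 0.15, adjusted p = 4.51e-06). RP11-350N15.4 overlaps 1.23% of its exon bases on the other strand, and the part of this overlap was not tested. FGFR3 (chr4:1793307-1808872, plus strand) was low in both lines, at 0.396, 0.728 and 0.214 RPKM in UM-UC-3 and 0.0361, 0.117 and 0.0443 in T24, or 32 to 113 and 6 to 16 counts. Its groups did not overlap and the log2 fold change was 2.83 (SE 0.77, adjusted p = 0.00663). FGFR2 (chr10:121478334-121598458, minus strand), the receptor that carries FGF7 and FGF10 signals in epithelia, had 12 to 28 counts in the UM-UC-3 siNC libraries and 0 in those of T24. FGFR2 passed the filter on low counts through UM-UC-3 alone, so a call could only be higher there, as it was (edgeR quasi-likelihood test, adjusted p = 1.79e-04). The UM-UC-3 mean was 6.04 times the level of 3 counts in each T24 library, a value that leaves out the spread of the UM-UC-3 counts. Mates of a pair appear to be counted separately, so 3 counts stand for fewer fragments and this value can be too high. FGFR4 (chr5:177086886-177098144, plus strand), at 0.228 to 0.645 RPKM in UM-UC-3 and 0.295 to 0.382 in T24, overlapped between the lines, with a log2 fold change of 0.38 (SE 0.42, adjusted p = 0.492).

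MET, the hepatocyte growth factor receptor at chr7:116672390-116798386 (plus strand), was at 11.4, 10.5 and 10.7 RPKM in UM-UC-3 siNC libraries and at 12.8, 17.2 and 12.4 in those of T24. The siNC libraries did not overlap, and yet the log2 fold change of -0.33 (SE 0.16, adjusted p = 0.115) did not pass the test. IGF1R, the receptor for IGF1 and IGF2 at chr15:98648971-98964530 (plus strand), was at 0.606, 0.614 and 0.832 RPKM in UM-UC-3 and at 0.733, 0.234 and 0.647 in T24. Its log2 fold change of 0.36 (SE 0.42, adjusted p = 0.506) rested on the T24 library numbered 2, and without that library it was -0.048.

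The same comparison over all 3 siRNA arms, each weighted equally, called 6 of the 9 receptors against 66.1% of all genes (33.2% higher and 32.9% lower in UM-UC-3). EGFR (-2.18, SE 0.15), ERBB2 (-0.71, SE 0.079), FGFR1 (1.04, SE 0.086), FGFR2 and FGFR3 (2.73, SE 0.44) kept the direction they had in siNC. For FGFR2 no other direction could have been called. MET was added, lower in UM-UC-3 by a log2 fold change of -0.43 (SE 0.094, adjusted p = 6.81e-04), or -0.32 (adjusted p = 0.00551) without the T24 libraries numbered 2. Over the 9 libraries of each line MET overlapped, with 9.04 to 16.0 RPKM in UM-UC-3 and 11.5 to 21.9 in T24.

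**Figure D2:**
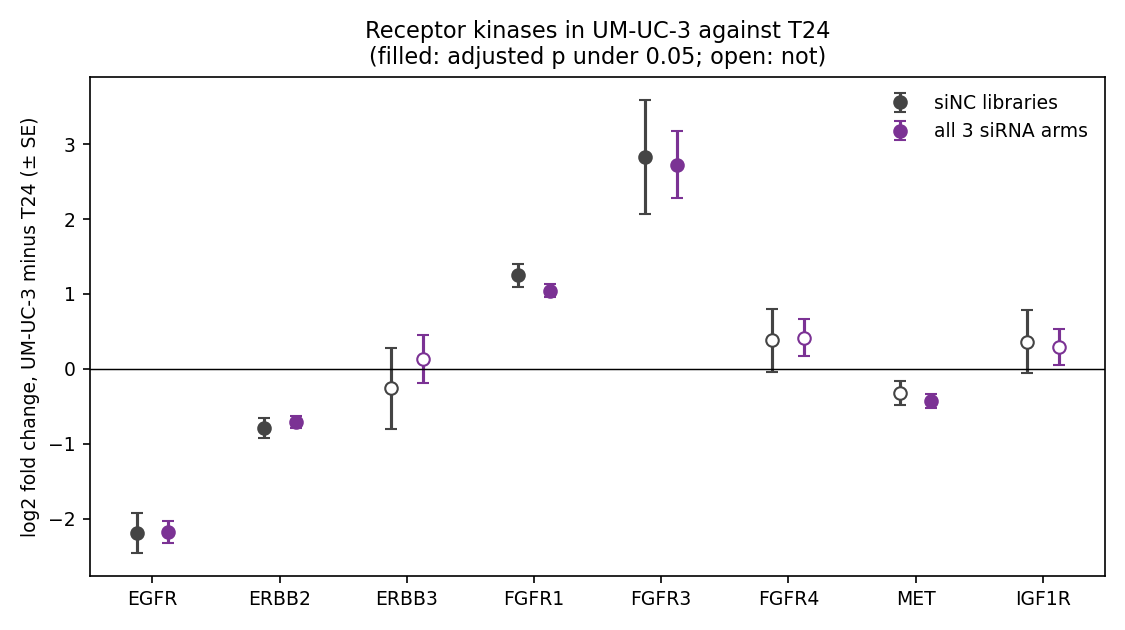
Log2 fold change of the receptors between UM-UC-3 and T24 with its SE, in siNC libraries and over all 3 siRNA arms. Filled points have an adjusted p under 0.05. ERBB4 was not tested, and FGFR2, at 0 in T24 siNC libraries, is left out because its fitted value is no measured size. EGFR (-2.20) and ERBB2 (-0.79) lie below 0 and FGFR1 (1.25) and FGFR3 (2.83) above it.

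The promoter sequence is shown 5′ to 3′ for FGFR3, ERBB2 and MET, which differed between the lines or between the siRNAs. It runs from 250 bases before to 50 after the start site that RefSeq gives for GRCh38.p14. That site differs from the GENCODE gene start printed above. For MET the window ends at 116672245, before the GENCODE start at 116672390. Entries were found for 5 of the 10 receptors, the other two being ERBB4 and IGF1R, while EGFR, ERBB3, FGFR1, FGFR2 and FGFR4 had none. Capitals mark GC boxes, GGGCGG on either strand, the letters that SP1 is known to bind, which 44.95% of all 35116 promoters in the table hold.
FGFR3, chr4:1793043-1793342, plus strand: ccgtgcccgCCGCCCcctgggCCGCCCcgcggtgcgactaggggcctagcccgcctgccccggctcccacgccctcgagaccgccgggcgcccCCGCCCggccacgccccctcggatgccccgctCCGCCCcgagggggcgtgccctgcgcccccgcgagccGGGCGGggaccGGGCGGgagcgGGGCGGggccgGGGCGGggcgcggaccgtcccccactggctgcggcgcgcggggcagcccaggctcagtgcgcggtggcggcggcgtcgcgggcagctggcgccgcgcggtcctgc
MET, chr7:116671946-116672245, plus strand: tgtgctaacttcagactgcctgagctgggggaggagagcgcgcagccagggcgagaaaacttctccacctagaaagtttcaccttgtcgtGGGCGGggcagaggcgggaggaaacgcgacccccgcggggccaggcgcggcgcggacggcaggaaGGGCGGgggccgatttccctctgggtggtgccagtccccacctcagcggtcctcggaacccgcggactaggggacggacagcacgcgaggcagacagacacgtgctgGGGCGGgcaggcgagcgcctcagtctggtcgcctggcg
ERBB2, chr17:39687844-39688143, plus strand: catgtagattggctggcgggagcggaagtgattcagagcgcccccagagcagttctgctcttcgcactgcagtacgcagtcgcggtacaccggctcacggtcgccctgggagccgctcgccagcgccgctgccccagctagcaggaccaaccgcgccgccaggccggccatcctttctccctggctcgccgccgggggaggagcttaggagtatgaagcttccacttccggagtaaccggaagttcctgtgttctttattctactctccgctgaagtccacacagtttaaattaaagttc

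FGFR3 held 8 GC boxes and 86.3% G or C in this window, with 51 CG dinucleotides, more than 99.0% of all promoters. MET held 3 and 69.3% G or C. ERBB2 held 0 in this window, with 60.7% G or C against a median of 58.7% over all promoters, and it held 1 CCAAT box (CCAAT on either strand, in 34.6% of promoters). These are descriptions of letters, and nothing in the data measures binding there.

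Each siRNA was then compared with siNC of its own line, the comparison the study was built for. Both comparisons within a line share their siNC libraries. In none of these 4 comparisons did edgeR call a receptor, 0 of 9 in each. Over all genes it called 0.00993% and 0.0546% for siACAT1-1 and siACAT1-2 in UM-UC-3 and 0.124% and 0.268% in T24. At an unadjusted p under 0.05 the 4 comparisons held 1, 1, 3 and 1 receptors, and DESeq2 called 0, 0, 0 and 1. The share of all genes is not given for either count, so neither is read as a result about the receptors. Of the 3 with siACAT1-1 in T24, 1 was FGFR2, on 2, 0 and 2 counts against 0 in each siNC library. Setting FGFR2 and ERBB4 aside for their low counts, the log2 fold changes ran from -0.32 (ERBB3) to 0.37 (MET) with siACAT1-1 and from -0.44 (ERBB3) to 0.37 (ERBB2) with siACAT1-2 in UM-UC-3. In T24 they ran from -1.28 (ERBB3) to 0.44 (MET) and from -0.65 (ERBB3) to 0.52 (FGFR1).

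Libraries with the same replicate number within a line deviated from their group means together, and a model with that number as a block, which compares libraries of 1 number with each other, made more calls. With this replicate block it called 3.06% and 1.36% of all genes for siACAT1-1 and siACAT1-2 in UM-UC-3, and 13.9% and 8.48% in T24. Of the receptors it called 0 of 9 in both UM-UC-3 comparisons, 2 of 9 with siACAT1-1 in T24 and 1 of 9 with siACAT1-2 in T24. These shares of receptors rest on 1 or 2 genes.

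The receptor called with siACAT1-2 in T24 was FGFR1, at 1.67, 2.35 and 1.62 RPKM with siNC, 2.21, 2.12 and 1.76 with siACAT1-1 and 2.52, 2.66 and 2.79 with siACAT1-2. The siACAT1-2 libraries lay above all siNC libraries, and each was above the siNC library of its own number. The log2 fold change was 0.52 (SE 0.15, adjusted p = 0.219) without the block and 0.54 (adjusted p = 0.0104) with it, and DESeq2 without the block gave 0.52 (adjusted p = 0.030). Without the 3 T24 libraries numbered 2 it was 0.69 (adjusted p = 0.0619). In UM-UC-3 the same siRNA left FGFR1 at 4.44, 4.296 and 4.96 RPKM, which overlapped siNC.

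Those called with siACAT1-1 in T24 were ERBB3 and MET. ERBB3 was at 0.349, 0.107 and 0.618 RPKM with siNC and at 0.145, 0.0766 and 0.220 with siACAT1-1, on 20 to 150 counts. The groups overlapped, but each siACAT1-1 library was below the siNC library of its number, and the log2 fold change was -1.28 (SE 0.56, adjusted p = 0.383) without the block and -1.16 (adjusted p = 0.0177) with it. Single libraries moved the value without the block, to -0.70 without T24 siNC number 3 and to -1.73 without T24 siNC number 2. An exon of ERBB3 shares 31 bases on the same strand with RP11-603J24.9, which stood at 721 RPKM against 0.246 for ERBB3 over all libraries, and the part of this overlap in the ERBB3 counts was not tested.

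Over the mean of the 4 knockdown comparisons edgeR called 0 of 9 receptors, against 0.223% of all genes, with 0 at an unadjusted p under 0.05 and 0 by DESeq2. With the replicate block it called 2 of 9, EGFR and ERBB3, against 12.4% of all genes. EGFR was lower in 11 of 12 libraries than in the siNC library of the same number, with a log2 fold change of -0.23 (SE 0.15, adjusted p = 0.644) without the block and -0.24 (SE 0.078, adjusted p = 0.0450) with it. Its values with siACAT1-1 and siACAT1-2 were 5.12, 3.41 and 4.64 and then 3.10, 2.92 and 3.88 RPKM in UM-UC-3, and 14.4, 24.6 and 12.4 and then 11.3, 24.6 and 16.9 in T24. Every one of these groups overlapped siNC. ERBB3 was lower in 10 of 12 libraries, with -0.67 (SE 0.33, adjusted p = 0.480) and -0.61 (SE 0.18, adjusted p = 0.0316) with the block. IGF1R was higher in 10 of 12, FGFR4 in 9 of 12 and MET in 9 of 12, and none of them passed the test in either model. Each siNC library serves 2 of the 12 pairs. FGFR4 and MET were higher in 3 of 3 pairs of each line with siACAT1-1. With siACAT1-2 FGFR4 was higher in 2 of 3 pairs in UM-UC-3 and 1 of 3 in T24, and MET in 1 of 3 and 2 of 3. FGFR1, higher in 8 of 12, had a log2 fold change of 0.17 (SE 0.091, adjusted p = 0.512).

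Whether the knockdown effect differed between the lines was tested directly, and edgeR called 0 of 9 receptors, against 0% of all genes without the block and 0.104% with it. At an unadjusted p under 0.05 it held 0 receptors, and DESeq2 called 0. Leaving FGFR2 aside, the differences of log2 fold change, UM-UC-3 minus T24, ran from -0.31 (FGFR1, SE 0.18) to 0.58 (ERBB3, SE 0.67). That of ERBB3 rested on single libraries, at 0.028 without T24 siNC number 3 and 1.06 without T24 siNC number 2.

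**Figure D3:**
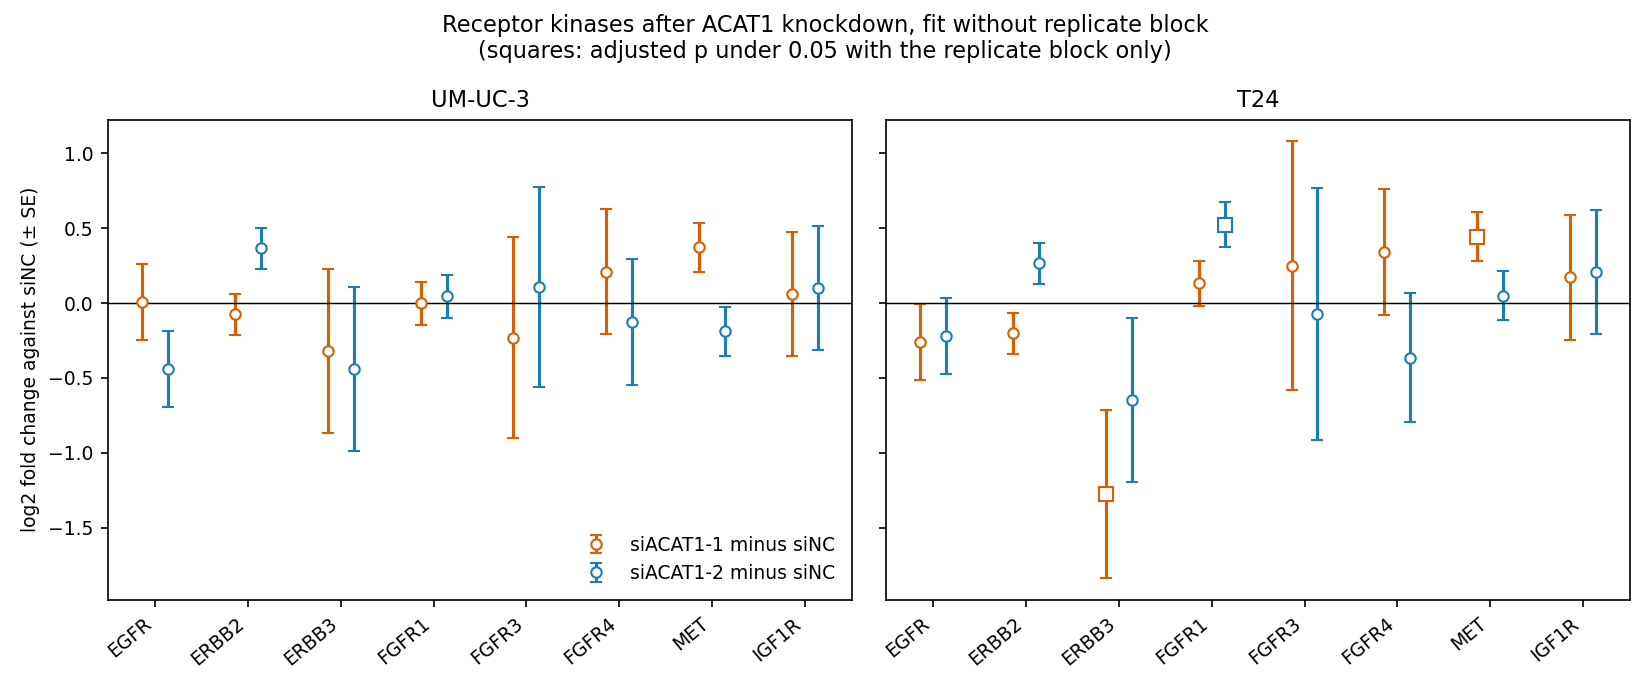
Log2 fold change of 8 receptors with each ACAT1 siRNA against siNC of the same line, with its SE, from the model without replicate block. None has an adjusted p under 0.05 in that model, and squares mark the 3 values called with the replicate block: ERBB3 (-1.28) and MET (0.44) with siACAT1-1 and FGFR1 (0.52) with siACAT1-2, all in T24.

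A direct comparison of the siRNAs, siACAT1-2 minus siACAT1-1 over both lines, called 2 of 9 receptors, ERBB2 higher and MET lower with siACAT1-2, against 2.56% of all genes (1.18% higher and 1.38% lower). With the replicate block the same 2 receptors were called, against 20.6%. ACAT1 itself was lower with siACAT1-2 by a log2 fold change of -0.62 (SE 0.15, adjusted p = 0.0340). Summed mesenchymal markers, mostly VIM, went with the siRNAs too. They were at 238.9 to 248.1 RPKM with siACAT1-1, 297 to 344 with siACAT1-2 and 287 to 349 with siNC in UM-UC-3. In T24 they were at 171 to 217, 235 to 393 and 219 to 318 in the same order. Of the 5 markers 2 were called, both higher with siACAT1-2, and with the replicate block 4 were higher and 1 lower. ZEB1 went the other way, from means of 42.5 RPKM with siACAT1-1 to 31.7 with siACAT1-2 in UM-UC-3 and 17.3 to 14.0 in T24. The part of ACAT1 and of these markers in the receptor values was not tested.

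ERBB2 was at 2.73, 3.10 and 3.12 RPKM with siNC, 2.70, 2.90 and 2.89 with siACAT1-1 and 4.16, 4.06 and 3.63 with siACAT1-2 in UM-UC-3. In T24 it was at 4.94, 5.31 and 5.71, then 3.87, 5.19 and 4.73, then 5.64, 6.37 and 6.96. In each line the siACAT1-2 libraries lay above all siACAT1-1 libraries, in UM-UC-3 also above all siNC libraries. The log2 difference between the siRNAs was 0.46 (SE 0.097, adjusted p = 0.0203) and 0.44 and 0.47 in UM-UC-3 and T24 alone, higher in 6 of 6 pairs of libraries with the same number. MIEN1, which overlaps 5.53% of the exon bases of ERBB2 on the other strand, had a log2 difference of 0.57 (SE 0.16, adjusted p = 0.0697), and its part in the ERBB2 counts was not tested.

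MET was at 11.4, 10.5 and 10.7 RPKM with siNC, 14.9, 11.5 and 16.0 with siACAT1-1 and 9.04, 9.24 and 11.3 with siACAT1-2 in UM-UC-3. In T24 it was at 12.8, 17.2 and 12.4, then 18.5, 21.9 and 16.7, then 11.5, 17.6 and 14.4. The siACAT1-1 libraries lay above all siNC and siACAT1-2 libraries in UM-UC-3, while in T24 the groups overlapped. The log2 difference between the siRNAs was -0.48 (SE 0.12, adjusted p = 0.0355), -0.56 in UM-UC-3 and -0.39 in T24, lower in 6 of 6 pairs. The change of MET with siACAT1-1 against siNC was 0.37 on the log2 scale in UM-UC-3 (SE 0.16, adjusted p = 0.933) and 0.44 in T24 (SE 0.16, adjusted p = 0.289), where each library was above the siNC library of its number. The latter was called with the replicate block at 0.45 (adjusted p = 0.0115). FGFR4 had a log2 difference of -0.52 (SE 0.30, adjusted p = 0.412) and was not called.

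The calls of ERBB2 and MET between the siRNAs did not hold under every setting. Without the filter on low counts neither receptor was called (adjusted p = 0.129 for ERBB2 and 0.0955 for MET), and neither was called within 1 line without the replicate block (ERBB2 0.348 and 0.121, MET 0.307 and 0.300 in UM-UC-3 and T24), while within 1 line with the block both were (ERBB2 0.0203 and 0.00790, MET 0.00564 and 0.0227). Leaving out UM-UC-3 siACAT1-1 number 1, siACAT1-2 number 1 or siACAT1-2 number 2, or T24 siACAT1-1 number 1 or siACAT1-2 number 3, ended both calls, and leaving out UM-UC-3 siNC number 1, UM-UC-3 siACAT1-1 number 3 or T24 siACAT1-2 number 1 ended that of MET. Leaving out the UM-UC-3 libraries numbered 3 in every arm ended both (0.0555 and 0.103), while without the T24 libraries numbered 2 both were called (0.00987 and 0.0159). With 1 library left out the adjusted p ran up to 0.0718 for ERBB2 and 0.106 for MET, while the log2 difference stayed between 0.41 and 0.49 for ERBB2 and between -0.54 and -0.43 for MET over all 18 libraries left out in turn.

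**Figure D4:**
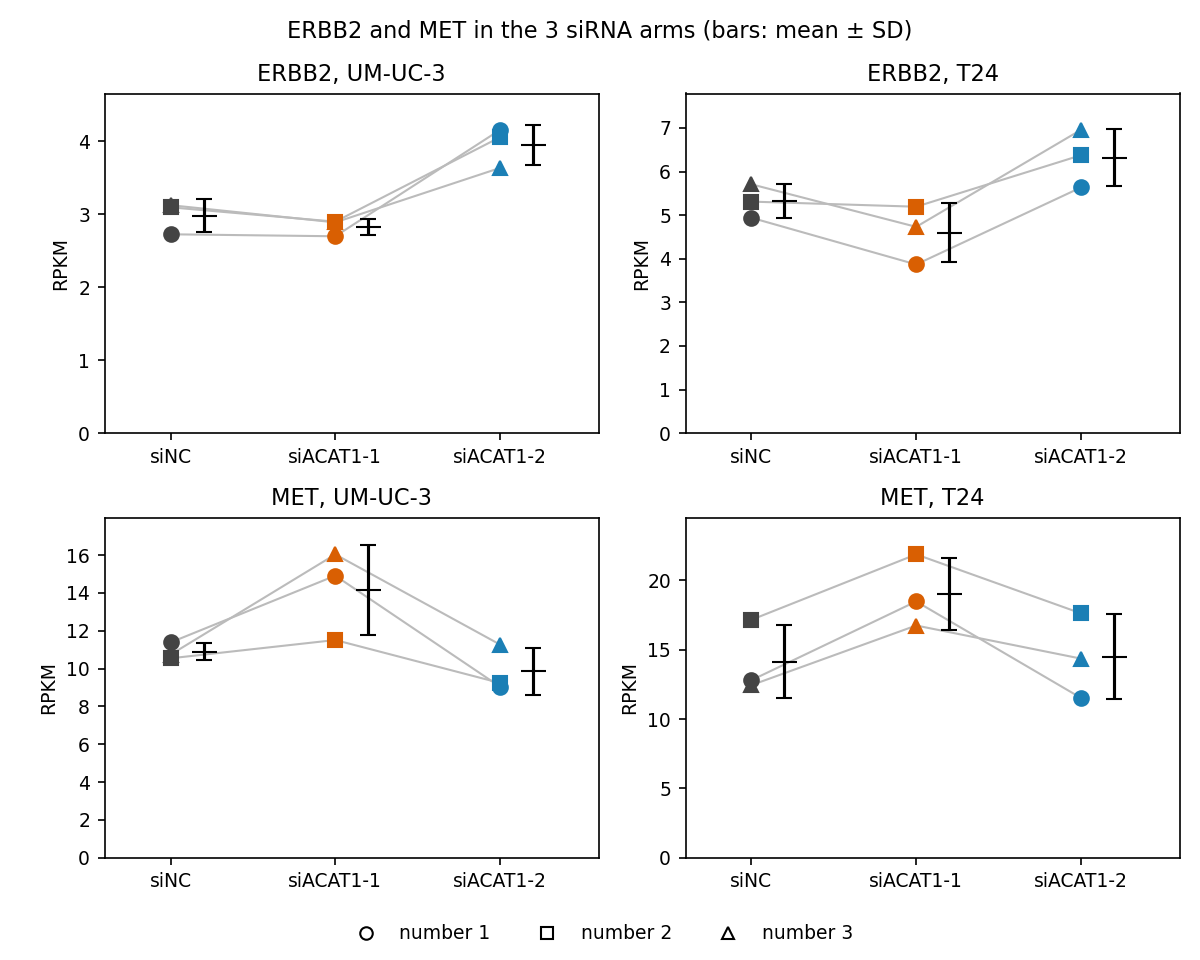
RPKM of ERBB2 and MET by siRNA arm in each line, with a point for each library, grey lines joining libraries of the same replicate number, and black bars for the mean and SD of 3 libraries. ERBB2 rises from siACAT1-1 to siACAT1-2 and MET falls along all 6 grey lines. Each axis starts at 0.

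For some receptors the libraries of a given replicate number stood apart in every siRNA arm. EGFR was at 24.6 to 25.7 RPKM in the 3 T24 libraries numbered 2 and at 11.3 to 18.6 in the other 6. IGF1R went the other way, with 0.234 to 0.389 RPKM in those libraries against 0.647 to 0.861. The T24 libraries numbered 1 lay narrowly above the rest for IGF1R, at 0.733 to 0.861 against at most 0.725. In UM-UC-3 it was FGFR3 that went with the number, at 0.0972 to 0.214 RPKM in the libraries numbered 3 against 0.308 to 0.728 in the rest. Those numbered 2 lay narrowly above the others, at 0.649 to 0.728 against at most 0.645. AREG, which encodes the EGFR ligand amphiregulin, was at 77.2, 49.2 and 62.4 RPKM in the T24 libraries numbered 2 and at 2.89 to 13.5 in the others. The labels do not say what a number marks, and the part of the epithelial marker level in these values was not tested. Over the 9 libraries of UM-UC-3 the highest level was 1.23 times the lowest for FGFR1 and 7.49 times for FGFR3, and in T24 it was 1.72 times for FGFR1 and 8.07 times for ERBB3.

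**Figure D5:**
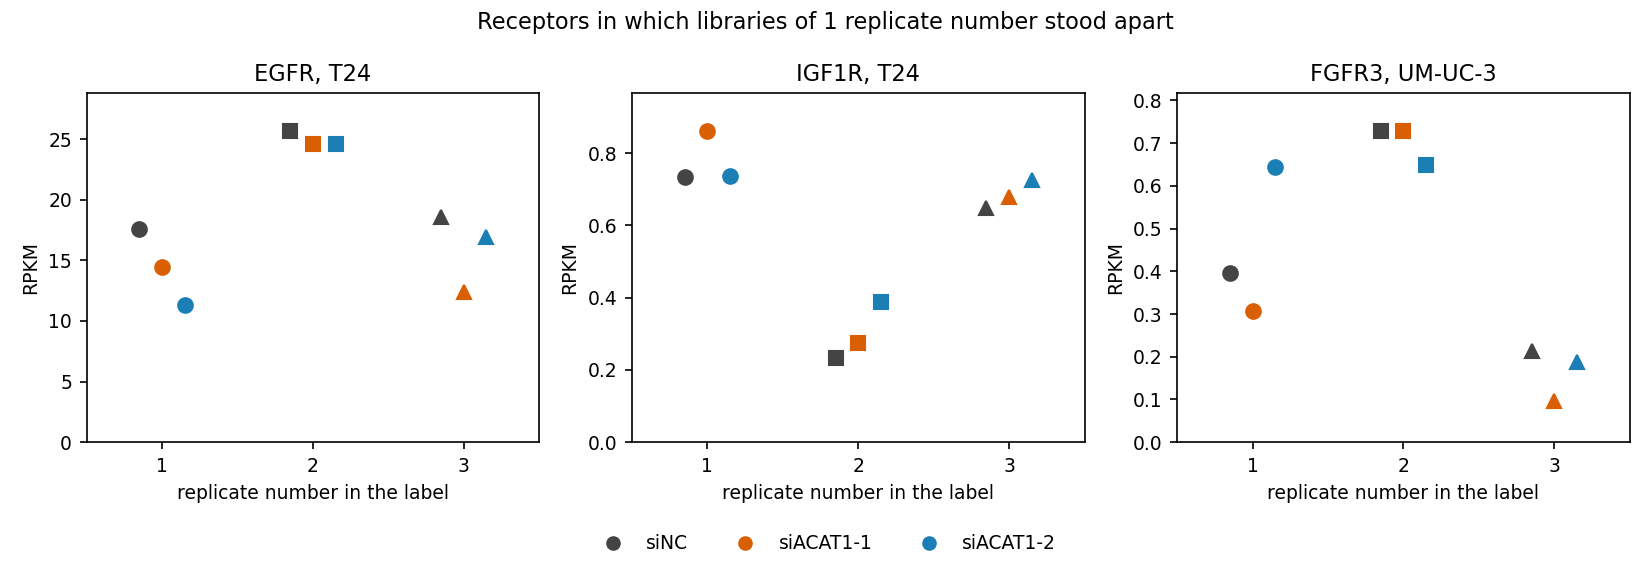
RPKM of EGFR and IGF1R in T24 and of FGFR3 in UM-UC-3 against the replicate number in the label, with a point for each library coloured by siRNA arm. In T24 the 3 libraries numbered 2 are above the others for EGFR (24.6 to 25.7) and below them for IGF1R (0.234 to 0.389), and in UM-UC-3 those numbered 3 are below the others for FGFR3 (0.0972 to 0.214).

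The genes whose level over the 18 libraries was most like that of a receptor, after each line's mean was subtracted from log2 CPM, were described for the 4 receptors above 1 RPKM. For EGFR they were KIAA1551 (Pearson r = 0.93), DERL2 (0.92) and SLC16A1-AS1 (0.92), and for ERBB2 CDS2 (0.91), SRRM3 (0.90) and EHD2 (0.89). For FGFR1 they were TESC (0.89), DPP9 (0.86) and LYST (0.85), and for MET GTF2A1 (0.92) and USP32 (0.92). Among the receptors themselves ERBB2 and MET had r = -0.70 and EGFR and IGF1R r = -0.70. These libraries share replicate numbers and siRNA arms, so the values are descriptions.

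The ligands, adaptors and other partners of these receptors were followed in 7 lists of 135 genes, of which 129 were in the table and 100 were tested. In siNC libraries 31 were higher and 25 lower in UM-UC-3, beside the 44.3% called over all genes, with a median log2 fold change of 0.12. Of 8 EGFR family ligands tested 1 was higher and 3 were lower in UM-UC-3, with a median of -0.95. AREG was at 0.36 RPKM ± 0.104 in UM-UC-3 and 29.3 ± 41.6 in T24 (3.70, 77.2 and 6.88 by library, so that the mean rested on the library numbered 2), TGFA, which encodes TGF alpha, at 0.0879 ± 0.0165 and 1.25 ± 0.773, and the neuregulin gene NRG2 at 5.61 ± 0.652 and 1.59 ± 1.14 (each SD, n = 3). T24, the line with more EGFR, also had more AREG and TGFA RNA. This did not extend to every EGFR ligand. HBEGF was at 7.29 RPKM ± 1.89 in UM-UC-3 siNC libraries and 14.7 ± 18.0 in those of T24. EREG was at 0.884 ± 0.0466 and 1.86 ± 2.35 (each SD, n = 3), and neither was called.

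IGF2, a ligand of IGF1R, was at 66.5 RPKM ± 20.8 in UM-UC-3 siNC libraries and at 0.848 ± 0.402 in T24 (SD, n = 3), a log2 fold change of 6.36 (SE 0.50, adjusted p = 4.10e-08). IGF1 did not pass the filter on low counts, and HGF, the MET ligand, was not found by name among the genes counted. Of 4 FGF genes tested 1 was higher and 1 lower (median -0.87), and FGF5 was at 0.173 ± 0.084 and 5.005 ± 2.04 RPKM in UM-UC-3 and T24. Among 10 genes of ligand release and co-receptors 2 were higher and 3 lower in UM-UC-3 (median -0.35), with ADAM10, the sheddase of EGF and betacellulin, at 6.39 ± 0.357 against 1.95 ± 0.355 RPKM and NRP1 at 0.244 ± 0.0752 against 9.52 ± 3.33. GPC1 and RHBDF1 were lower and PLAU was higher.

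Among 25 adaptors and signal relays 7 were higher and 8 lower in UM-UC-3 (median -0.18). The PI3K subunit gene PIK3R3 (log2 fold change 3.43) and the docking protein gene GAB2 (1.58) were higher, PIK3R1 (-1.38) and HRAS (-1.18) were lower, and SHC3 was at 0.00209 RPKM in UM-UC-3 against 1.29 in T24. Of 28 inhibitors, removal factors and binding proteins 5 were higher and 6 lower (median 0.15), with GRB14, an inhibitor of the insulin receptor family, higher (2.95) and IGFBP7 (-5.74), SPINT2 (-2.90) and FGFRL1 (-1.46) lower, and IGFBP1 at 0 in all 9 UM-UC-3 libraries against 2.07 ± 1.04 RPKM in T24 siNC (SD, n = 3). Among other receptor tyrosine kinases 14 of 24 were higher and 4 lower in UM-UC-3, with a median of 1.31, beside 22% and 22.3% of all genes. Some were near 0 in T24, such as FLT4 (0.336 RPKM in UM-UC-3 and 0.00755 in T24 siNC libraries) and ROR2 (0.218 and 0.00817). Such genes can pass the filter on low counts through UM-UC-3 alone and then only come out higher there. MST1R was the reverse (0.00861 and 0.333). ROR1 (4.37), the collagen receptor gene DDR2 (3.96), TIE1 (3.72) and INSR (1.33) were higher and PTK7 (-1.75) was lower.

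ACAT1 knockdown was followed in the same 100 partners. For siACAT1-2 in UM-UC-3 1 of 100 was called, NRP1, a co-receptor, with a log2 fold change of 1.38 (SE 0.24, adjusted p = 0.0446), and in the other 3 comparisons edgeR called 0 of 100, with 10 (siACAT1-1 in UM-UC-3), 13 and 9 (siACAT1-1 and siACAT1-2 in T24) at an unadjusted p under 0.05. The share of all genes under that unadjusted threshold is not given, so these counts are not read as a result about the partners. With the replicate block edgeR called 9 and 7 for siACAT1-1 and siACAT1-2 in UM-UC-3, beside 3.06% and 1.36% of all genes, and 19 and 10 in T24, beside 13.9% and 8.48%. Over the mean of the 4 comparisons 2 of 100 were called, beside 0.223% of all genes, and 15 with the block, beside 12.4%. NRP1 rose by 0.83 (SE 0.15, adjusted p = 0.0258), from 0.178 to 0.326 RPKM with siNC to 0.489 to 0.718 with the siRNAs in UM-UC-3 and from a range of 6.21 to 12.9 to one of 9.36 to 15.7 in T24, where the groups overlapped. AXL, a receptor tyrosine kinase for GAS6, fell by 0.55 on the log2 scale (SE 0.10, adjusted p = 0.0399), from means of 36.8 RPKM with siNC to 30.2 and 24.2 with siACAT1-1 and siACAT1-2 in UM-UC-3 and from 33.3 to 24.5 and 18.7 in T24.

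Between the siRNAs 3 of 100 partners were called, all lower with siACAT1-2, beside 2.56% of all genes, and 26 with the replicate block, beside 20.6%, so both shares lay near those of all genes. Among them FRS2, which docks on FGFR1, differed by -0.69 (SE 0.18, adjusted p = 0.0472) and TGFA by -1.10 (SE 0.28, adjusted p = 0.0463). Both siRNAs target the same gene, and what sets their effects apart was not tested.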

How the data were processed

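RNA-seq libraries from UM-UC-3 and T24 cells (6 groups, 3 libraries each) were analysed from the files the authors deposited. Per the study's methods and the submitters' processing notes, stranded libraries were trimmed with Trimmomatic 0.36, mapped to GRCh38 with STAR 2.5.3 and counted on exons with featureCounts of Subread 1.5.1. The deposited counts per gene are not normalized. The deposited RPKM equals counts scaled to gene length and column total for all genes, within a relative difference of 6.4e-07. Between 72.7% and 76.7% of the counts from 1 to 10 in a library are even, so mates of a pair appear to be counted separately and low counts stand for fewer fragments. The annotation, the strand setting and the use of the molecular identifiers are not given in the sources used here. The tables hold 26 gene names as dates and 2 duplicated names, and no receptor is among them.

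Tests ran on these counts in edgeR 4.0.16 under R 4.3.3 (TMM, filterByExpr by group, quasi-likelihood test, Benjamini-Hochberg adjustment over 20144 genes, called under 0.05) with all 18 libraries fitted together, 1 coefficient for each group and no block. Groups came from the sample labels. The p-values rest on the spread between libraries within groups, with 1 estimate per gene shared by all 6 groups of 3 libraries. Depth was a median of 28613163 counts. The limit set by a count of 0 was taken as 3 counts per library and covers counting error only. It makes no allowance for mates counted separately, so it can be too low. The tests were also run on simulated counts. These held no effect of the replicate number, so that run cannot show how the tests do on libraries that deviate together. Deviations from group means of libraries with the same number correlated in each of 9 pairs in UM-UC-3 (r 0.115 to 0.576) and in T24 (0.356 to 0.686), and not across lines (-0.327 to 0.211, 27 pairs), so the numbers were taken as pairing libraries within a line, from the data alone. For the comparisons between the lines the block instead took a number as shared by both lines, a pairing that these correlations do not show.

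The members, the gene lists and the tests were chosen with earlier results of these data known. All 10 receptors were named, with up to 5 called genes per list of the largest change and a mean of at least 1 RPKM in siNC of either line, every list gene called after knockdown, and the 3 genes most like a receptor by log2 CPM with a prior count of 2. Some genes that this rule names are not reported here. Alternatives were median-of-ratios size factors, no filter, DESeq2 1.42.0, only the groups compared, a replicate block, and each library left out in turn. Each line alone, T24 without number 2 and UM-UC-3 without number 3 were added after the data were seen. Gene positions are from GENCODE on GRCh38 and promoters from RefSeq.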

Additional observations from a re-analysis of the deposited data

Results flagged for a closer look

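ERBB2 and MET were the receptors whose response differed between the siRNAs by a test of the difference itself, siACAT1-2 minus siACAT1-1 over both lines in edgeR's quasi-likelihood test. The log2 difference was 0.46 for ERBB2 (adjusted p = 0.0203, higher in 6 of 6 pairs of libraries with the same number) and -0.48 for MET (adjusted p = 0.0355, lower in 6 of 6 pairs). The pairs are the same libraries that gave the calls. With 1 library left out the call was lost in 5 of 18 runs for ERBB2 and 8 of 18 for MET. Without the filter on low counts both were lost. Over all genes 2.56% were called in this comparison. No difference of the knockdown effect between the lines was called for a receptor. The groups of 3 libraries were too small for the test of single outlying libraries.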

How the results depend on the processing

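The calls between the lines (5 of 9 receptors in siNC, 6 of 9 over all arms) kept their direction and their adjusted p under 0.05 in each alternative run, and the counts stayed within 1.5 times those reported. FGFR2 is counted in both and could only be called higher in UM-UC-3. Of 325 alternative values for the 13 called pairs of receptor and comparison, 0 changed sign and 21 lost the call, all of them ERBB2 or MET between the siRNAs. Of 1696 for the 68 pairs not called, 114 changed sign. With the replicate block 2 receptors were called for siACAT1-1 in T24, 1 for siACAT1-2 in T24 and 2 over the mean of 4 comparisons, each against 0 without it, and DESeq2 called 1 for siACAT1-2 in T24. The block changed no other count of receptors by over 1.5 times. It was paired within a line, except in the comparisons between the lines, where a number was shared by both. Of all genes it called 2500 over the mean, against 45. Between the siRNAs 2 receptors were called, and 0 without the filter on low counts, 0 without the UM-UC-3 libraries numbered 3, 0 in UM-UC-3 alone and 0 in T24 alone, with 0 to 2 when 1 library was left out. Among the values printed in the report those that changed sign, none of them called, were in siNC between the lines ERBB3 (-0.73 to 0.30 over the libraries left out), FGFR4 (-0.12 to 0.68) and IGF1R (-0.048 to 0.71, and -0.037 without the T24 libraries numbered 2), and with siACAT1-1 in UM-UC-3 ERBB3 (0.041 without the libraries numbered 3). The cause was not tested. Partner genes were recomputed with the replicate block alone. Receptors under 1 RPKM rest on few counts (ERBB4 0 to 6, FGFR2 0 to 30 per library).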
